A study of Mus musculus with 16 samples.

Results

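The quantity described here is the difference between the transforming growth factor beta (TGF-beta) response of cardiac fibroblasts given a Cre virus and that of the same preparations given a green fluorescent protein (GFP) virus. It was taken within each cell preparation as Cre with TGF-beta minus Cre, less GFP with TGF-beta minus GFP, on the log2 scale. All 16 libraries of the series enter it, and all genes with enough reads were described, 15285 of the 55414 in the table. A value above 0 means that the response was more positive in Cre cells. Where a level is given for Cre cells or GFP cells with no further word, it is the level without TGF-beta.

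RNA was sequenced from cultured cardiac fibroblasts of mice, in 4 groups of 4 libraries that share 4 cell preparations. The groups were Cre cells given TGF-beta, Cre cells without it, GFP cells given TGF-beta and GFP cells without it. Every group was at passage 2, starved of serum for 24 h, held with an adenovirus for 5 h and stimulated for 48 h. The Cre virus was meant to delete Has2, the gene of a hyaluronan synthase, through its floxed allele, and the GFP virus was its control. The treatment protocol gives the cells as Has2 fl/fl, whereas the genotype field reads Wild Type C57BL/6J, and the labels do not settle which holds. The protocol names 20 ng/mL of bFGF and of TGF-beta in 1 phrase, so whether cells without TGF-beta had bFGF is not stated. Cells were plated at 1 heart per flask, preparations 1 and 4 were male and preparations 2 and 3 female, and the labels used here give neither the age of the animals nor the promoter of the viruses.

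TGF-beta binds a receptor kinase pair that phosphorylates SMAD proteins, which enter the nucleus and change transcription. In cardiac fibroblasts it is known for driving the change into myofibroblasts, which carry smooth muscle actin fibres and lay down scar matrix. Hyaluronan is a long sugar polymer of the matrix that is made at the cell surface by Has enzymes and bound by receptors such as CD44, and the contrast asks whether cells given the virus meant to delete Has2 answer TGF-beta differently.

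Libraries held 17.9 to 48.7 M counts. Preparation 4 stood apart from the other 3: the collagen gene Col1a1 was at 4907 to 8661 counts per M, CPM, in its 4 libraries and at 9521 to 21330 CPM in the other 12. The defining fibroblast markers were abundant, with the 8 listed markers summing to 14657 to 39327 CPM in Cre cells given TGF-beta, 19421 to 44158 CPM in Cre cells, 17897 to 44143 CPM in GFP cells given TGF-beta and 20792 to 46826 CPM in GFP cells. The 12 listed cardiomyocyte markers summed to 3.34 to 13.1 CPM in Cre cells given TGF-beta, 8.36 to 23.8 CPM in Cre cells, 3.35 to 6.62 CPM in GFP cells given TGF-beta and 5.37 to 16.8 CPM in GFP cells. Of these the contractile genes Actc1 and Pln and the peptide hormone gene Nppa had 0 counts in every library and Myh6 had at most 1, whereas Tnnt2, cardiac troponin T, reached 22.7 CPM in a library of Cre cells.

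Has2, the targeted gene (ENSMUSG00000022367), was read first. It was at 12.4, 11.04, 25.0 and 17.4 CPM in Cre cells given TGF-beta (preparations 1 to 4) and at 14.9, 13.5, 16.6 and 13.9 CPM in Cre cells. With the GFP virus it was at 15.3, 9.47, 21.9 and 20.6 CPM given TGF-beta and at 18.0, 15.3, 23.2 and 18.4 CPM without it. All 4 groups overlapped. Within each preparation Has2 was lower in the Cre than in the GFP library without TGF-beta, whereas with TGF-beta it was lower in preparations 1 and 4 and higher in preparations 2 and 3. The counts run over the whole gene and do not separate the exon that Cre removes, so they do not measure how many cells carried the deletion. The TGF-beta response of Has2 was 0.09 ± 0.15 (log2 fold change ± SE) in Cre cells and -0.20 ± 0.15 in GFP cells, and neither passed edgeR's test (adjusted p = 0.649 in Cre cells and 0.311 in GFP cells). The difference of responses was 0.29 ± 0.22, with a 95% interval from -0.18 to 0.75, and was 0.12 with the trend of each library with GC content and transcript length removed. Within preparations it was -0.03, 0.40, 0.67 and 0.16.

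Both sets of cells answered TGF-beta broadly. With TGF-beta 3856 genes were called higher (25.2% of the genes tested) and 4174 lower (27.3%) in Cre cells, by edgeR's quasi-likelihood test at an adjusted p under 0.05. In GFP cells the test called 3451 higher (22.6%) and 4047 lower (26.5%). Of the genes called in both, 6535 of 6538 went the same way. The genes called in both were 81.4% of the Cre list and 87.2% of the GFP list. Across the genes tested, which are not independent replicates, the responses of Cre and GFP cells correlated at r = 0.942 (Spearman's rho 0.889). The slope of the Cre response on the GFP response was 1.01, taken with error in both. Both responses come from the same 4 preparations. Within single preparations the slope was 0.963, 1.04, 1.04 and 1.06, with r between 0.807 and 0.874.

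**Figure D1:**
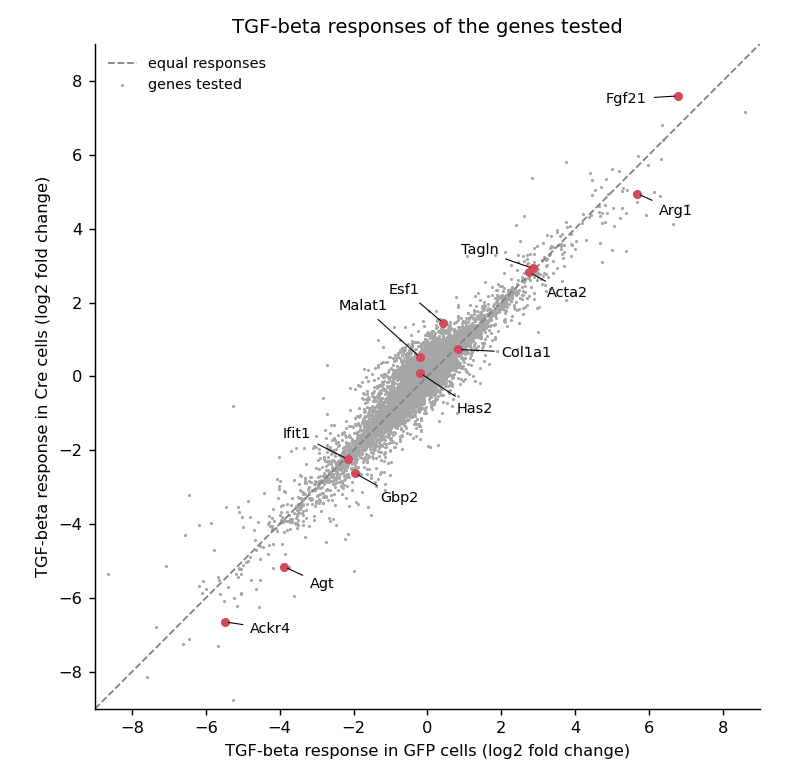
TGF-beta response of each of the 15285 genes tested, as log2 fold change, in Cre cells (y axis) and GFP cells (x axis), with 12 genes named in the text in red. The points lie along the dashed line of equal responses (r = 0.942, slope 1.01), from Ackr4 and Agt at the lower end to Fgf21 at the upper end.

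The genes with the strongest responses show this at both ends. Fgf21, a stress-induced metabolic hormone, was at 12.6, 20.6, 6.96 and 8.06 CPM in Cre cells given TGF-beta and at 0.0522, 0.0618, 0.0921 and 0.0492 CPM in Cre cells. With the GFP virus it was at 11.8, 19.1, 8.07 and 8.33 CPM given TGF-beta and at 0, 0.0720, 0.233 and 0.152 CPM without it. The TGF-beta libraries lay far above the others under both viruses, and the difference of responses was 0.80 with an interval from -0.87 to 2.47. Cdh6, a cell adhesion cadherin, rose by 5.57 in Cre cells and by 5.19 in GFP cells on the log2 scale. Olfm2, an olfactomedin family protein, rose by 5.04 in Cre cells and 5.40 in GFP cells. The strong rises also held Rph3a, a vesicle docking protein, which rose by 4.57 in Cre cells and by 5.27 in GFP cells.

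Arg1, the arginase that turns arginine into ornithine, was at 12.1, 19.8, 13.1 and 42.7 CPM in Cre cells given TGF-beta and at 0.392, 0.926, 0.368 and 1.01 CPM in Cre cells. The GFP libraries held 15.1, 21.5, 13.8 and 54.6 CPM given TGF-beta and 0.150, 0.612, 0.372 and 0.811 CPM without. Its response was 4.95 in Cre cells and 5.68 in GFP cells, and its difference of -0.73 had an interval from -1.40 to -0.07. The same 6 strongest rises also held Cnn1, the smooth muscle calponin of contractile cells, at 4.55 in Cre cells and 5.03 in GFP cells.

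At the lower end stood Ackr4, a decoy chemokine receptor, with a response of -6.65 in Cre cells and -5.48 in GFP cells. Its difference of -1.16 ran from -2.71 to 0.39 and was farthest from 0 in preparation 3 (-2.93, against -0.12, 0.62 and -0.22 in the others). Cxcl5, a neutrophil chemokine, fell by 5.88 in Cre cells and by 6.10 in GFP cells. Fmo2, a flavin monooxygenase, had responses of -5.67 in Cre cells and -6.19 in GFP cells. Abi3bp, a matrix-binding protein, had responses of -5.75 in Cre cells and -6.01 in GFP cells. Ppp1r3c, a glycogen-targeting phosphatase subunit, fell by 6.09 in Cre cells and by 5.52 in GFP cells. Ly6a, the surface protein Sca-1 of resting fibroblasts, fell by 5.89 in Cre cells and 5.06 in GFP cells. Each of these 6 genes had a difference interval that included 0.

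Over all genes with an average response of at least 2-fold that passed the test, 754 higher and 1677 lower, the median absolute difference of responses was 0.187. The response was larger in Cre cells for 1250 of these 2431 genes. The median difference was -0.04 for those that rose and -0.03 for those that fell.

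The difference itself passed the test for no gene. EdgeR's quasi-likelihood test with the preparation as a block called 0 of 15285 genes (0%), and the smallest adjusted p was 0.999991. At an unadjusted p under 0.05 there were 501 genes, where 764 are 5% of those tested. Of the 501, 387 lay above 0 (2.53% of all genes) and 114 below 0 (0.746%). DESeq2 also called 0, with 510 genes at an unadjusted p under 0.05, and limma on the within-preparation differences called 0, with 448. The unadjusted count was 90 without the block and 1448 without the library of Cre cells given TGF-beta of preparation 4, with 0 genes called in both cases. Differences had a median of -0.01 and an SD of 0.33 over genes, and 90% of them lay between -0.37 and 0.59.

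The test can be read against its precision. The 95% interval of the difference lay inside a 2-fold change in either direction for 11667 genes (76.3%) and inside a 1.5-fold change for 8539 (55.9%). The median half-width of that interval was 0.391 on the log2 scale. It was 0.994 in the quartile of genes with the lowest mean CPM, 0.448 and 0.289 in the middle quartiles and 0.246 in the highest. In the lowest quartile, of genes up to 2.54 CPM, the interval lay inside a 2-fold change for 886 of 3822 genes. Among the 2431 genes with a called average response of at least 2-fold, the interval lay inside a 2-fold change for 1302.

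The preparations shared little of the pattern. A difference above 0 in all 4 preparations was found for 1231 genes (8.05%) and below 0 in all 4 for 1300 (8.51%). Over genes, the within-preparation differences of 2 preparations correlated at -0.03 to 0.18 (median 0.07 over 6 pairs).

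Contractile and myofibroblast genes, the output that TGF-beta is best known for, were mostly called higher under both viruses. Of 30 such genes 26 were called higher in Cre cells (25.2% of all genes were) and 24 in GFP cells (22.6%), with 2 called lower in each (27.3% and 26.5%). Their median difference was -0.02, against -0.01 over all genes, and 0 were called or reached an unadjusted p under 0.05. Acta2, smooth muscle actin and the usual myofibroblast marker, was at 2695, 2404, 2176 and 1546 CPM in Cre cells given TGF-beta and at 220.8, 317.7, 364.2 and 339.2 CPM in Cre cells. In GFP cells given TGF-beta it was at 2693, 2501, 2383 and 1403 CPM, against 234.5, 348.1, 356.4 and 374.2 CPM without. The libraries with TGF-beta lay above all others, and the Cre and GFP libraries overlapped, with neither higher in every preparation. The rise was 2.82 ± 0.24 in Cre cells and 2.76 ± 0.24 in GFP cells, a difference of 0.06 with an interval from -0.61 to 0.74.

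Tagln, an actin-binding protein of smooth muscle, rose by 2.92 in Cre cells and by 2.86 in GFP cells, a difference of 0.06 (-0.34 to 0.47). Pdlim7, which ties kinases to actin fibres, rose by 1.31 in Cre cells and by 1.46 in GFP cells. Its difference of -0.15 (-0.41 to 0.11) was below 0 in all 4 preparations. Lpp, a focal adhesion protein, rose by 0.52 in Cre cells, had a response of 0.28 in GFP cells that did not pass, and had a difference of 0.24 (-0.27 to 0.76).

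Among 40 direct targets and feedback genes of TGF-beta the median difference was -0.05. Called higher were 22 in Cre cells (25.2% of all genes were) and 23 in GFP cells (22.6%). Called lower were 13 in Cre cells (27.3% of all genes were) and 12 in GFP cells (26.5%), near the shares of all genes. Inhba, the subunit of the TGF-beta family ligand activin A, had the highest difference of the 40. It was at 541.4, 500.4, 835.6 and 1326 CPM in Cre cells given TGF-beta and at 153.3, 103.7, 242.1 and 467 CPM in Cre cells. Under the GFP virus the values were 465.1, 296.7, 462.5 and 996.5 CPM when TGF-beta was given and 154.3, 90.6, 164.4 and 462.8 CPM when it was not. In every preparation the library of Cre cells given TGF-beta was the highest of the 4. Inhba rose by 1.85 in Cre cells and 1.47 in GFP cells, and the difference of 0.38 had an interval from -0.04 to 0.81 and was 0.20 with the GC and length trend removed.

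The ligand gene Tgfb2 fell by 0.73 in Cre cells and by 1.03 in GFP cells, a difference of 0.30 (-0.01 to 0.61) that was above 0 in each preparation. The receptor gene Tgfbr1 had a difference of 0.36 (-0.15 to 0.87), with no response called in either. Ccn2, the matricellular protein also known as CTGF, rose by 0.93 in Cre cells and by 1.03 in GFP cells, a difference of -0.10 (-0.42 to 0.22).

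Collagen and structural matrix genes had a median difference of -0.06 over 37 genes, with 15 called higher and 13 lower in Cre cells (25.2% and 27.3% of all genes were) and 16 and 13 in GFP cells (22.6% and 26.5%). Col1a1, the main chain of fibrillar collagen I, was at 18250, 18730, 17070 and 7320 CPM in Cre cells given TGF-beta and at 9521, 10900, 11140 and 4907 CPM in Cre cells. Levels after the GFP virus were 20370, 21330, 19370 and 8661 CPM given TGF-beta, and 10260, 11310, 11790 and 5288 CPM without it. In each preparation it was lower in the Cre library than in the GFP library of the same medium. It rose by 0.73 in Cre cells and by 0.83 in GFP cells, a difference of -0.10 (-0.33 to 0.12) that was below 0 in all 4 preparations.

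Col3a1, of collagen III, fell by 1.67 in Cre cells and by 1.54 in GFP cells, a difference of -0.13 (-0.42 to 0.16). Fn1, fibronectin, had responses of 0.12 in Cre cells and 0.13 in GFP cells and a difference of -0.01 (-0.44 to 0.42). Postn, periostin, fell by 2.03 in Cre cells and by 2.26 in GFP cells. Its difference of 0.23 had a wide interval, from -1.31 to 1.77, and was -0.22 with the GC and length trend removed. Within preparations the difference of Postn was 0.24, 0.43, 0.22 and 0.11. Loxl3, a collagen cross-linking oxidase, rose by 0.73 in Cre cells and by 0.99 in GFP cells (difference -0.26, from -0.59 to 0.08). Emilin1, a glycoprotein of elastic fibres, fell by 0.74 in Cre cells and by 0.59 in GFP cells, and Mfap4, a microfibril protein, had a difference of -0.22 (-0.67 to 0.24).

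Genes that make and break down hyaluronan were followed because the virus was aimed at one of them. Over 17 tested genes the median difference was -0.05, with 0 called and 0 at an unadjusted p under 0.05. Has1, a second synthase, had group means of 1.97 to 2.53 CPM, with single libraries from 0.30 to 5.16 CPM. Its difference was -0.45 with an interval from -1.47 to 0.56, and was -0.97, -0.14, -0.88 and -0.23 within preparations. Gfpt2, an enzyme that starts hexosamine synthesis for the sugar precursors, fell by 1.11 in Cre cells and by 0.90 in GFP cells (difference -0.21, from -0.54 to 0.11). The hyaluronidase genes Hyal1 and Hyal2 had differences of -0.22 (-0.59 to 0.15) and -0.06 (-0.39 to 0.26). Cemip, which degrades hyaluronan at the cell surface, had a response of -0.80 in Cre cells that did not pass and fell by 1.10 in GFP cells, and its difference was 0.30 (-0.66 to 1.25).

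Receptors and binding proteins of hyaluronan had a median difference of -0.05 over 17 tested genes. Cd44, the main hyaluronan receptor, was at 267.4, 261.3, 377.8 and 297.2 CPM in Cre cells given TGF-beta and at 133.4, 151.7, 235.6 and 196.1 CPM in Cre cells. With the GFP virus it was at 285.8, 310.4, 353.1 and 362.6 CPM given TGF-beta and at 150.1, 138.6, 205.8 and 240.0 CPM without it. Under both viruses the libraries with TGF-beta lay above those without. Cd44 rose by 0.77 in Cre cells and by 0.86 in GFP cells, and its difference of -0.10 had an interval from -0.40 to 0.21. Ptx3, a protein that cross-links the hyaluronan matrix, had responses of -3.86 in Cre cells and -3.72 in GFP cells. Tlr4, an innate receptor reported to sense hyaluronan fragments, had a difference of 0.48 (-0.21 to 1.16), and the scavenger receptor Stab1 one of 0.13 (-0.12 to 0.39).

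Proteoglycans, the sugar-bearing proteins that share the matrix with hyaluronan, had a median difference of -0.04 over 39 tested genes. The syndecan Sdc3 fell by 0.80 in Cre cells and by 0.60 in GFP cells, and its difference of -0.20 (-0.42 to 0.02) was below 0 in all 4 preparations. Hs6st2, a heparan sulfate sulfotransferase, had a difference of 0.46 (-0.18 to 1.10).

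**Figure D2:**
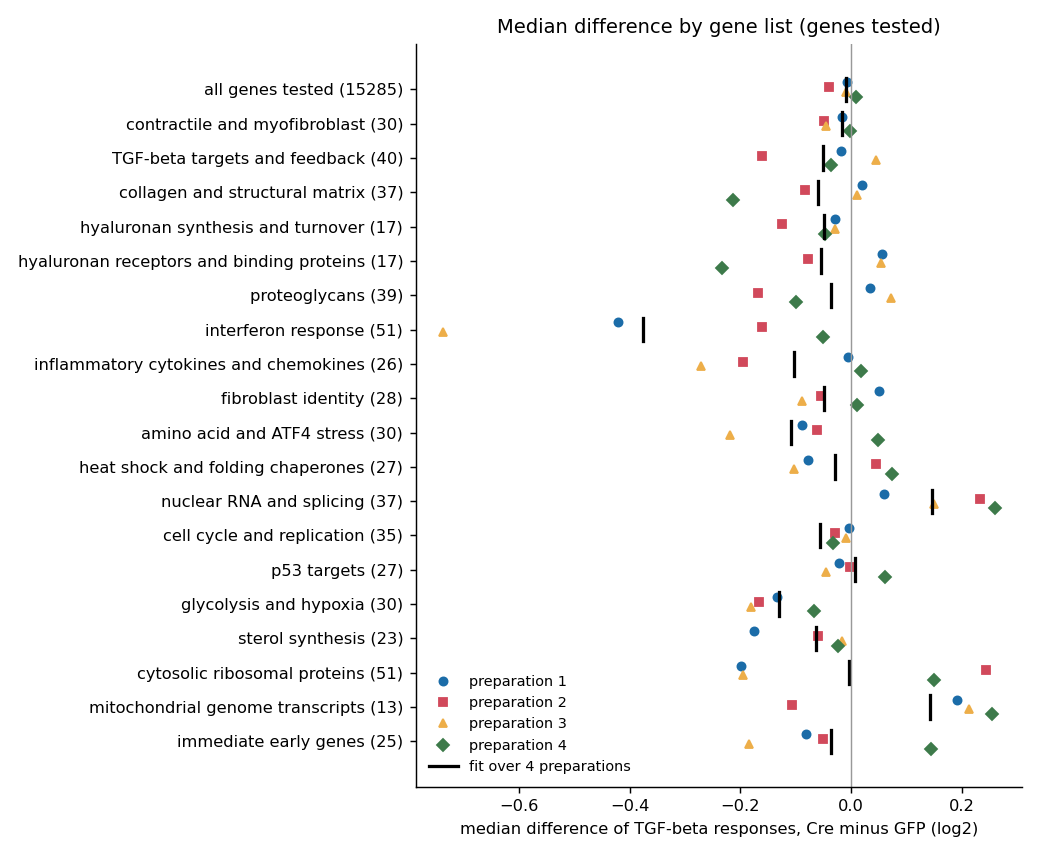
Median difference of TGF-beta responses (Cre minus GFP, log2) over the tested genes of each pathway list, with all genes tested in the top line, 1 symbol per preparation and a black bar for the fit over all 4. The interferon list lies lowest at -0.38 and the nuclear RNA list highest at 0.15, while the contractile, TGF-beta target, matrix and hyaluronan lists lie between -0.06 and -0.02.

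The interferon response genes, antiviral genes that interferons turn on, had the lowest median of all lists. Of 51 tested genes 48 had a difference below 0, with a median of -0.38, and 17 were below 0 in all 4 preparations (8.51% of all genes were). At an unadjusted p under 0.05 there were 9 below 0 (0.746% of all genes were) and 2 above 0, and none passed the adjusted threshold. By preparation the median was -0.42, -0.16, -0.74 and -0.05, so it lay near 0 in preparation 4. Without preparation 3 the median was -0.23, and without preparation 4 it was -0.46. The list was chosen with an earlier result of these data known, that interferon genes were higher in Cre than in GFP cells without TGF-beta.

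The levels behind this difference were as follows. The list summed to 1718 to 3123 CPM in Cre cells given TGF-beta and to 4056 to 6235 CPM in Cre cells. It summed to 1295 to 2467 CPM in GFP cells given TGF-beta and to 2359 to 4394 CPM in GFP cells. The range of Cre cells without TGF-beta was the highest of the 4. Of the 51 genes 47 were called lower and 1 higher in Cre cells (27.3% and 25.2% of all genes were). In GFP cells 45 were called lower and 2 higher (26.5% and 22.6%). The median response was -1.67 in Cre cells and -1.38 in GFP cells. Leukocyte markers had a median difference of 0.02 over 15 tested genes and summed to 456 to 1180 CPM in Cre cells given TGF-beta, 716 to 1900 CPM in Cre cells, 485 to 1076 CPM in GFP cells given TGF-beta and 814 to 1773 CPM in GFP cells. In such bulk samples fewer cells of a type and less RNA per cell cannot be told apart. The part of leukocytes in the interferon values was not tested.

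Interferon-induced genes are switched on through a promoter element, the interferon-stimulated response element, whose core repeats are written here as TTCNNTTTC. The promoters of 3 interferon genes named whatever their result are shown around their matches to those letters on either strand, in capitals where they match. The windows are 60 bases each, from the RefSeq promoters of GRCm38.p6, and are given in the direction of the gene. Gbp2 (plus strand, chr3:142620579-142620638) has 1 match and Ifit1 (plus strand, chr19:34640779-34640838) and Isg15 (minus strand, chr4:156200851-156200910) have 3 each, some of which overlap.
Gbp2: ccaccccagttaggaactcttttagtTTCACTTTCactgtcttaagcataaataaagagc
Ifit1: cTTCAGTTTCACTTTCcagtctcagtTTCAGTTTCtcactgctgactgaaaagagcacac
Isg15: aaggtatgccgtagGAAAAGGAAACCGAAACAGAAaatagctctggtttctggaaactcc
In promoters of 250 bases before to 50 after the start, the letters occurred in 24 of 38 interferon genes with a promoter in the table (63.2%), against 941 of 10764 genes tested (8.74%). They occurred in 1 of 33 nuclear RNA genes (3.03%) and in 5 of 21 collagen and matrix genes (23.8%).

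Gbp2, a guanylate-binding protein that attacks intracellular microbes, had the smallest p of the named genes below 0. It was at 14.1, 13.4, 17.2 and 14.4 CPM in Cre cells given TGF-beta and at 82.2, 78.1, 125.7 and 80.7 CPM in Cre cells. The GFP libraries held 12.9, 10.2, 15.2 and 13.96 CPM given TGF-beta and 47.2, 49.3, 46.7 and 57.2 CPM without. The groups with TGF-beta overlapped, with the Cre library slightly higher in each preparation, while without TGF-beta every Cre library lay above every GFP library. Gbp2 had responses of -2.62 in Cre cells and -1.96 in GFP cells, a difference of -0.66 (-1.01 to -0.30).

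The differences of Ifit1 and Isg15, whose windows also hold the letters, were not below 0 in every preparation. Ifit1, which binds viral RNA, was at 24.7, 34.7, 42.3 and 61.5 CPM in Cre cells given TGF-beta and at 149.6, 143.4, 247.6 and 205.1 CPM in Cre cells. In GFP cells given TGF-beta it was at 16.3, 11.4, 22.0 and 33.1 CPM, against 59.5, 85.3, 86.5 and 125.6 CPM without. Ifit1 was higher in the Cre library of each preparation in both media. Its within-preparation differences were -0.73, 0.85, -0.58 and 0.18, and the fitted one was -0.09 (-0.62 to 0.44).

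Isg15, a ubiquitin-like modifier, was at 80.4, 91.0, 94.5 and 202.2 CPM in Cre cells given TGF-beta and at 179.2, 197.3, 280.6 and 228.2 CPM in Cre cells. Under the GFP virus the values were 45.7, 41.3, 46.0 and 129.7 CPM when TGF-beta was given and 58.6, 98.0, 87.2 and 144.8 CPM when it was not. In both media Isg15 was higher in the Cre library of each preparation, and its difference was -0.40 (-1.07 to 0.27).

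Other interferon genes named were Ifi47, an immunity-related GTPase, which fell by 0.44 in Cre cells, had a response of 0.04 in GFP cells and a difference of -0.49 (-0.84 to -0.14). Tap1, which carries peptides to MHC class I, fell by 1.62 in Cre cells and by 1.25 in GFP cells (difference -0.37, from -0.67 to -0.07). Both were below 0 in all 4 preparations, and neither held a match to the letters in the 250 bases before its start. Oas3, an RNA-sensing synthetase chosen after its values were seen, had a difference of -0.95 (-1.88 to -0.03). The 2 members above 0 in all 4 preparations, also chosen after their values were seen, were Ifi27, a mitochondrial membrane protein, at 0.51 (0.07 to 0.96) and the guanylate-binding protein Gbp7 at 0.53 (0.01 to 1.06). Ifi27 rose by 1.24 in Cre cells and by 0.73 in GFP cells.

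Of the leading genes below 0 outside the list, Znfx1, a helicase that senses viral RNA, fell by 1.15 in Cre cells and by 0.82 in GFP cells (difference -0.33). Cmtr1, which methylates the mRNA cap, fell by 0.63 in Cre cells, with -0.20 in GFP cells that did not pass (difference -0.42). Rnf114, a ubiquitin ligase, fell by 0.33 in Cre cells, with -0.04 in GFP cells (difference -0.30). The MHC class Ib gene H2-M3 fell by 1.37 in Cre cells and by 0.89 in GFP cells (difference -0.48).

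Agt, angiotensinogen, was at 0.259, 0.151, 0.237 and 0.200 CPM in Cre cells given TGF-beta and at 11.1, 6.96, 6.26 and 6.22 CPM in Cre cells. Levels after the GFP virus were 0.502, 0.404, 0.468 and 0.512 CPM given TGF-beta, and 11.3, 7.31, 6.19 and 4.21 CPM without it. With TGF-beta every Cre library lay below every GFP library, at under 1 CPM in both, and without it the groups overlapped. Agt fell by 5.15 in Cre cells and by 3.87 in GFP cells, a difference of -1.28 (-2.05 to -0.52). Tcirg1, a subunit of the vacuolar proton pump, had a difference of -0.40, the sugar transporter Slc2a6 one of -0.88 and the membrane protein gene Tmem179 one of -0.46. Tmem179 rose by 3.20 in Cre cells and by 3.67 in GFP cells.

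**Figure D3:**
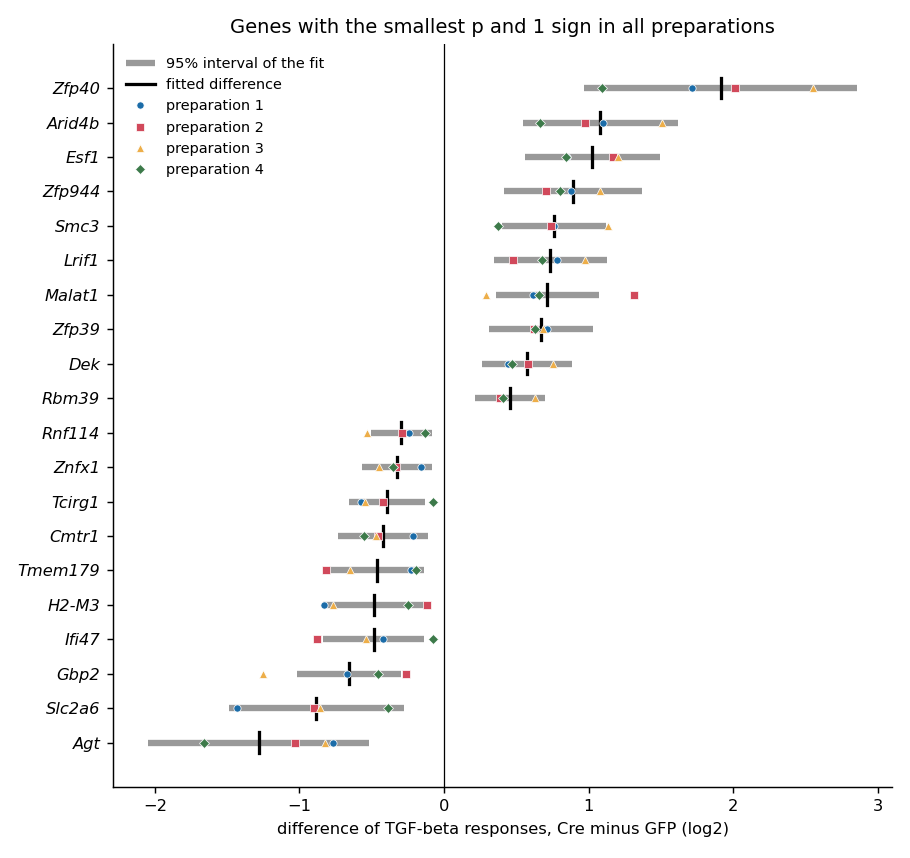
Difference of TGF-beta responses (Cre minus GFP, log2) of the 10 genes above 0 and the 10 below 0 with the smallest p among those with the same sign in all 4 preparations, with the 95% interval in grey, the fitted value as a black bar and 1 symbol per preparation. Zfp40 lies highest at 1.91 and Agt lowest at -1.28, and none of the 20 passed the adjusted threshold.

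The list of nuclear RNA and splicing genes had the highest median among the pathway lists, 0.15. Of 37 tested genes 33 had a difference above 0, and 20 were above 0 in all 4 preparations (8.05% of all genes were). At an unadjusted p under 0.05 there were 13 above 0 (2.53% of all genes) and 0 below 0, and none passed the adjusted threshold. By preparation the median was 0.06, 0.23, 0.15 and 0.26, and without preparation 4 it was 0.17. In Cre cells 21 were called higher and 3 lower (25.2% and 27.3% of all genes were). In GFP cells 9 were called higher and 6 lower, where 22.6% and 26.5% of all genes were. The share called higher in GFP cells was thus near that of all genes. The nuclear RNA list, like the others, was chosen with earlier results of these data known. Its transcripts had a median GC content of 42.8%. In the quartile of genes with the lowest GC, 307 of 3815 genes were above 0 at an unadjusted p under 0.05. The median difference of that quartile was 0.12.

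Esf1, a nucleolar protein of ribosomal RNA processing, had the smallest p of all named genes above 0. It was at 25.2, 23.3, 26.8 and 68.5 CPM in Cre cells given TGF-beta and at 11.1, 7.33, 6.31 and 35.2 CPM in Cre cells. With the GFP virus it was at 12.8, 8.99, 11.6 and 34.2 CPM given TGF-beta and at 10.2, 6.37, 6.28 and 31.6 CPM without it. In each preparation the library of Cre cells given TGF-beta was about 2-fold or more above its GFP counterpart, and the libraries without TGF-beta were close. Esf1 rose by 1.45 in Cre cells and by 0.42 in GFP cells, a difference of 1.03 (0.56 to 1.49).

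Malat1, a long non-coding RNA of nuclear speckles, was at 239.6, 253.0, 96.5 and 624.3 CPM in Cre cells given TGF-beta and at 190.8, 143.5, 64.5 and 481.9 CPM in Cre cells. The GFP libraries held 115.0, 104.3, 56.9 and 254.3 CPM given TGF-beta and 140.0, 147.2, 46.4 and 310.1 CPM without. In each preparation the highest of the 4 libraries was that of Cre cells given TGF-beta. Malat1 rose by 0.52 in Cre cells and had a response of -0.20 in GFP cells that did not pass, a difference of 0.72 (0.36 to 1.07). Rbm39, a splicing factor, rose by 0.36 in Cre cells, with -0.10 in GFP cells (difference 0.46, from 0.21 to 0.70). The kinase of splicing factors Clk1, the splicing factor Luc7l3 and the non-coding RNA Neat1, chosen after their values were seen, had differences of 0.58, 0.64 and 0.41, all above 0 in each preparation.

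Smc3, a subunit of the cohesin ring that holds sister chromatids, was at 39.5, 31.99, 50.6 and 63.4 CPM in Cre cells given TGF-beta and at 35.8, 22.0, 27.3 and 63.0 CPM in Cre cells. In GFP cells given TGF-beta it was at 27.8, 19.7, 27.4 and 49.6 CPM, against 42.8, 22.7, 32.5 and 63.7 CPM without. All groups overlapped. Within each preparation Smc3 was higher in the Cre than in the GFP library with TGF-beta and lower without it. Smc3 rose by 0.40 in Cre cells and fell by 0.36 in GFP cells, a difference of 0.76 (0.40 to 1.12). Arid4b, a subunit of a histone deacetylase complex, likewise rose by 0.58 in Cre cells and fell by 0.50 in GFP cells (difference 1.08). Dek, a chromatin protein, had a response of -0.07 in Cre cells that did not pass and fell by 0.64 in GFP cells (difference 0.57). Lrif1, a nuclear receptor cofactor, had a difference of 0.73. Of the zinc finger genes, Zfp40 had a difference of 1.91 at group means of 0.65 to 2.23 CPM, Zfp944 one of 0.89 and Zfp39 one of 0.67.

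**Figure D4:**
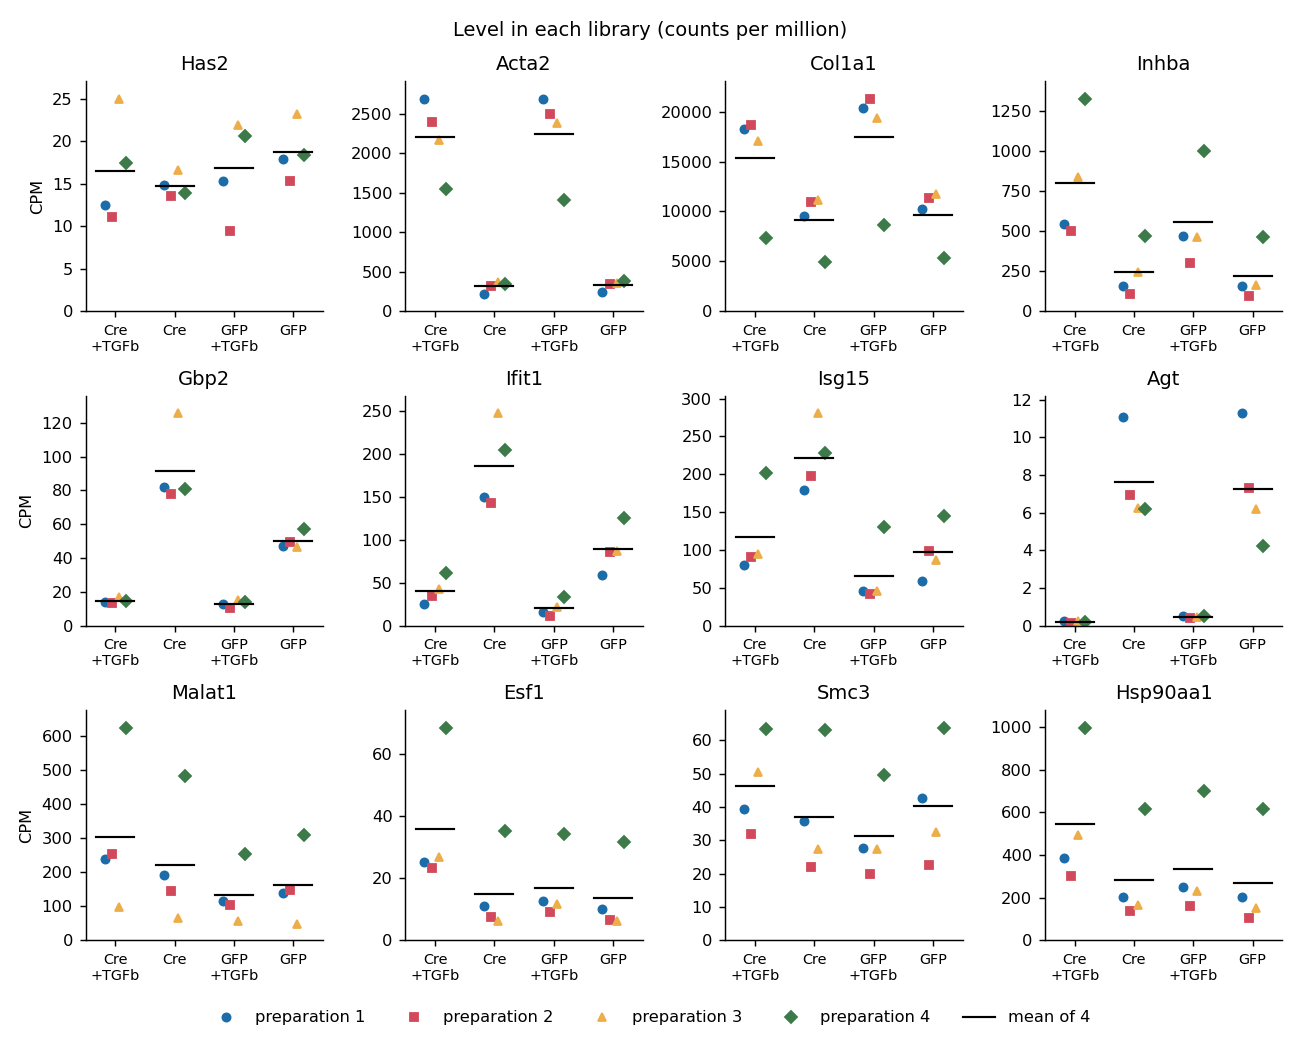
CPM in each of the 16 libraries for 12 genes, with 1 symbol per preparation and a bar for the mean of 4 libraries, in the order Cre with TGF-beta (TGFb), Cre, GFP with TGF-beta and GFP. Gbp2 is higher in the Cre than in the GFP libraries without TGF-beta and overlaps with it, whereas Esf1 in Cre cells given TGF-beta lies above the other groups within each preparation.

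The genes above 0 had transcripts of low GC content. The 10 leading genes above 0 had a median GC of 40.0% and the 10 below 0 one of 55.6%, against 49.8% over all genes tested. The nuclear RNA list had a median of 42.8% and the interferon list one of 49.0%. Over 15259 genes the difference of responses had a rank correlation of -0.31 with GC and of 0.02 with transcript length, as a description. The value for length hid opposite values by preparation, 0.30, -0.19, 0.27 and -0.27. With GC the correlation was -0.25, -0.21, -0.20 and -0.07 by preparation. In the quartile of genes with the lowest GC (31.0% to 45.1%) the median difference was 0.12, and 307 of the 387 genes above 0 at an unadjusted p under 0.05 were in it. In the highest quartile (54.4% to 78.3%) the median was -0.05.

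Libraries also differed in this respect. The level of the lowest against the highest GC quartile moved with TGF-beta by 0.25, 0.42, 0.36 and -0.17 log2 units in Cre cells (preparations 1 to 4) and by 0.01, 0.21, 0.14 and -0.23 in GFP cells. The Cre value exceeded the GFP value in each preparation, by 0.24, 0.21, 0.23 and 0.07. With the GC and length trend of each library removed, the nuclear RNA list had a median of 0.09, Esf1 a difference of 0.78, Malat1 0.61, Smc3 0.64, Rbm39 0.39, Arid4b 0.87 and Lrif1 0.22, while the interferon list had a median of -0.39 and Gbp2 a difference of -0.64. Some other differences above 0 also became smaller. Dek stood at 0.35, Clk1 at 0.34, Gbp7 at 0.34, Tlr4 at 0.21, Tgfbr1 at 0.16, Rrm2b at 0.15 and Lpp at 0.01. Others moved away from 0, with Nfkbia from 0.21 to 0.23, Acta2 from 0.06 to 0.10 and Cd44 from -0.10 to -0.16.

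**Figure D5:**
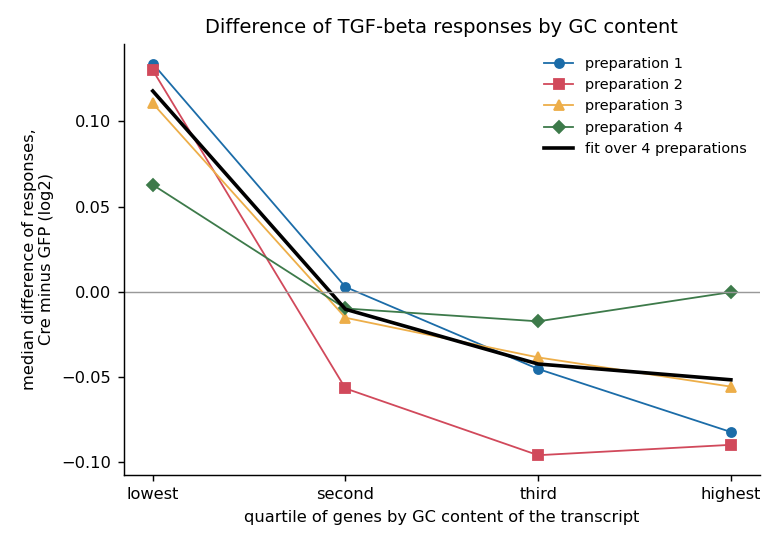
Median difference of TGF-beta responses (Cre minus GFP, log2) in quartiles of genes by the GC content of the transcript, with 1 line per preparation and a black line for the fit over all 4. The lowest quartile lies above 0 in each preparation, at 0.12 in the fit, and the highest lies at -0.05.

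The 27 heat shock and folding genes had a median difference of -0.03, with 3 above 0 at an unadjusted p under 0.05 (2.53% of all genes were). Of these Hsp90aa1, the inducible HSP90, was at 386.1, 299.2, 492.7 and 996.7 CPM in Cre cells given TGF-beta and at 203.5, 138.7, 165.6 and 616.7 CPM in Cre cells. Under the GFP virus the values were 247.2, 161.3, 228.6 and 702.6 CPM when TGF-beta was given and 202.9, 103.8, 152.8 and 614.3 CPM when it was not. Cre cells given TGF-beta had the highest level in each preparation. Hsp90aa1 rose by 1.09 in Cre cells and by 0.41 in GFP cells, a difference of 0.68 (0.29 to 1.07). The ribosome-bound chaperone Dnajc2 had a difference of 0.47 (0.18 to 0.76) and the HSP70-type Hspa4l one of 0.50 (0.07 to 0.94), and both rose under both viruses. These 3 genes also had low GC, 39.5% to 43.7%, and with the GC and length trend removed the differences were 0.61 for Hsp90aa1, 0.35 for Dnajc2 and 0.20 for Hspa4l.

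Of 30 amino acid and ATF4 stress genes 24 were called higher in Cre cells (25.2% of all genes were) and 23 in GFP cells (22.6%). In each 1 was called lower (27.3% and 26.5% of all genes were), and the median difference was -0.11. Ddit4 and Sesn2, stress-induced inhibitors of mTOR signalling, had differences of -0.17 (-0.40 to 0.05) and -0.18 (-0.43 to 0.07).

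Of 30 glycolysis and hypoxia genes 29 had a difference below 0 and 16 were below 0 in all 4 preparations (8.51% of all genes were), with 0 at an unadjusted p under 0.05. The median was -0.13, and -0.13, -0.17, -0.18 and -0.07 by preparation. Pgam1 and Pkm, enzymes of lower glycolysis, had differences of -0.19 (-0.44 to 0.05) and -0.14 (-0.35 to 0.06). Gapdh and the hexokinase Hk2, chosen after their values were seen, had differences of -0.14 and -0.23. With the GC and length trend removed the median was -0.08, with Pkm at -0.08 and Gapdh at -0.08. The list summed to 15331 ± 758 CPM in Cre cells given TGF-beta and 16301 ± 722 CPM in Cre cells, and to 15670 ± 455 CPM in GFP cells given TGF-beta and 15184 ± 884 CPM in GFP cells (SD, n = 4 each).

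Inflammatory cytokines and chemokines had a median difference of -0.10 over 26 tested genes. In Cre cells 19 were called lower and 4 higher (27.3% and 25.2% of all genes were). In GFP cells 18 were called lower and 4 higher (26.5% and 22.6%). The list summed to 3127 to 4456 CPM in Cre cells given TGF-beta and to 3500 to 3632 CPM in Cre cells, and to 3521 to 4669 CPM in GFP cells given TGF-beta and to 3683 to 3828 CPM in GFP cells. Ccl8, a monocyte chemokine, fell by 2.62 in Cre cells and by 1.84 in GFP cells (difference -0.78, from -1.50 to -0.06), at group means of 0.66 to 4.04 CPM. Nfkbia, the inhibitor of NF-kappa B, had a difference of 0.21 (-0.10 to 0.51). Immediate early genes had a median of -0.04 over 25 genes, and Fos fell by 1.56 in Cre cells and by 1.23 in GFP cells.

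Of 28 genes of resting fibroblasts 23 were called lower in Cre cells (27.3% of all genes were) and 22 in GFP cells (26.5%). In each 0 were called higher (25.2% and 22.6% of all genes were), and the median difference was -0.05. Dpep1, a membrane dipeptidase, fell by 2.32 in Cre cells and by 2.06 in GFP cells, and the collagen receptor Ddr2 by 0.75 in Cre cells and by 0.96 in GFP cells.

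Cell cycle genes had a median difference of -0.06 over 35 genes, with 13 called lower and 2 higher under each virus. Over all genes the shares were 27.3% lower and 25.2% higher in Cre cells, and 26.5% and 22.6% in GFP cells. Mki67, the proliferation marker Ki-67, was at 11.2, 8.74, 38.9 and 32.4 CPM in Cre cells given TGF-beta and at 23.2, 20.5, 26.1 and 45.5 CPM in Cre cells. Levels after the GFP virus were 8.20, 6.62, 17.0 and 44.6 CPM given TGF-beta, and 37.7, 21.1, 45.8 and 62.1 CPM without it. All 4 groups overlapped. Within each preparation Mki67 was lower in the Cre than in the GFP library without TGF-beta. The difference of 0.85 (-0.07 to 1.77) was 2.00 in preparation 3 and -0.02 in preparation 4. The p53 targets had a median of 0.01 over 27 genes, with Rrm2b, a ribonucleotide reductase subunit, at 0.39 (-0.15 to 0.93).

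Of 23 sterol synthesis genes 13 were called higher and 0 lower under each virus, and the median difference was -0.06. Over all genes the shares were 25.2% higher and 27.3% lower in Cre cells, and 22.6% and 26.5% in GFP cells. The isomerase Idi1 had a difference of 0.58 (0.02 to 1.13) and the dehydrogenase Nsdhl one of -0.29 (-0.59 to 0.01). The 51 cytosolic ribosomal protein genes had a median of 0.00 that hid opposite values by preparation, -0.20, 0.24, -0.19 and 0.15. Mitochondrial genome transcripts had a median of 0.14 over 13 genes, which turned to -0.21 with the GC and length trend removed. Among them mt-Atp6, a subunit of ATP synthase, was at 7.43, 11.00, 7.91 and 10.1 CPM in Cre cells given TGF-beta and at 3.21, 3.21, 3.04 and 6.66 CPM in Cre cells. With the GFP virus it was at 5.46, 5.65, 6.02 and 6.43 CPM given TGF-beta and at 4.29, 3.996, 3.07 and 6.64 CPM without it. The highest library of each preparation was that of Cre cells given TGF-beta. The difference was 0.80 (0.25 to 1.35) and 0.33 with the GC and length trend removed, and since mt-Atp6 overlaps a neighbouring gene its counts are uncertain.

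Markers of other cell types gave few values. The median difference was 0.02 over 15 leukocyte, 0.01 over 14 endothelial, -0.05 over 9 pericyte and smooth muscle and -0.02 over 8 mesothelial and epicardial markers, with 0 called. Of the cardiomyocyte and Schwann markers 3 each were tested, with medians of 0.68 and 0.15. By preparation these medians changed sign, at 0.39, 1.01, -0.09 and -0.17 for cardiomyocyte and -0.74, 0.03, 0.34 and 0.98 for Schwann markers. Of the leukocyte markers 8 had a difference above 0 and 7 below 0, with 3 above 0 and 0 below 0 in every preparation. Among those below 0 was Fcgr1, an Fc receptor of macrophages, at -0.52 (-0.98 to -0.05), though at 0.33 in preparation 2. Tnni3, cardiac troponin I, had a difference of 1.60 (0.29 to 2.91) at group means of 0.22 to 0.55 CPM. It had 1 to 29 counts per library, and its difference by preparation was 1.51, 1.60, 2.61 and -0.43.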

How the data were processed

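The authors deposited raw counts of reads per gene, whole numbers with no normalization, for 16 libraries. The submitters' processing notes name FastQC 0.10.1, HTSeq 0.10.0 and build mm39. Aligner, annotation and strandedness: not given in the sources used, so genes that overlap are uncertain. Symbols (52081 identifiers), GC content and transcript length are from GENCODE M21, made for an older build.

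Genes were kept with filterByExpr (minimum count 10, minimum total 15), which left 99.9% of the counts, and scaled by TMM (0.908 to 1.12). The contrast was tested by edgeR's robust quasi-likelihood F test (edgeR 4.0.16, R 4.3.3) with the preparation as a block, Benjamini-Hochberg adjusted over all 15285 genes. SE is the fold change over the square root of F. Within-preparation values are differences of log2 CPM with a prior count of 2.

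Same-numbered libraries share a preparation code in their names. Deviations from group means correlated within all 24 such pairs (r from 0.323 to 0.838), with a median of -0.13 over 72 other pairs. Labelled sex matched in 16 of 16 libraries, and none was a duplicate of another in its group (chi-square per gene from 7.24 to 209). Pairs of libraries from different groups were not checked for duplication. The labels do not say whether a preparation was 1 heart. The p-values of the edgeR fit rest on how far all 4 groups vary over these 4 preparations. They do not measure the spread of the 4 within-preparation differences alone, on which only the limma run was based.

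The contrast, genes and lists were chosen with earlier results of these data known. Named genes were 17 fixed genes, the 10 with the smallest p on each side of 0 (established symbol, at least 2 CPM in the highest group, same sign in all 4 preparations), members of each list among its 3 smallest p, and the 6 highest and 6 lowest average responses at 10 CPM or more. Alternatives were no block, RLE factors, no filter, a stricter filter (5 CPM in 4 libraries), removal of GC and length trends, limma 3.58.1, DESeq2 1.42.0, a fold threshold of 1.5 and leave-one-out fits.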

Additional observations from a re-analysis of the deposited data

Results flagged for a closer look

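In 15 of 176 sets of 4 values examined, 1 value lay farther from the other 3 than Dixon's 95% limit for 4 values. Chance gives about 1 in 20 such sets. Most were levels in preparation 4. Esf1 was high there in every group, at 68.5 CPM in Cre cells given TGF-beta, 35.2 in Cre cells without it, 34.2 in GFP cells given TGF-beta and 31.6 in GFP cells without it. Col1a1 was low there, at 7320 CPM in Cre cells given TGF-beta and 8661 in GFP cells given TGF-beta. Isg15 was high, at 202.2 CPM in Cre cells given TGF-beta and 129.7 in GFP cells given TGF-beta. Hsp90aa1 was high, at 616.7 CPM in Cre cells and 702.6 in GFP cells given TGF-beta, and mt-Atp6 stood at 6.66 CPM in Cre cells. In preparation 3 Gbp2 was at 125.7 CPM in Cre cells, and in preparation 1 Agt was at 11.1 CPM in Cre cells. Of the differences of responses, Rbm39 stood at 0.629 in preparation 3 and Lpp at 0.0328 in preparation 2, away from their other 3 values.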

How the results depend on the processing

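The count of genes called for the difference of responses was 0 under all 28 alternatives run, with 90 to 1448 genes at an unadjusted p under 0.05. It was 90 without the replicate block, 568 with the GC and length trend removed, 111 against a fold of 1.5, 1108 without preparation 4 and 1448 without the library of Cre cells given TGF-beta of preparation 4, against 501 with all libraries. The fit without the replicate block called 4629 genes for the response in Cre cells and 4445 in GFP cells, against 8030 and 7498 with it. The correlation of the responses was 0.469 and their slope 0.928 with no filter on low counts, and the correlation was 0.974 under the stricter filter. The cause of these shifts was not tested.

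Over the 27 alternatives that gave list medians, the interferon median ranged from -0.51 to -0.23 and the nuclear RNA median from 0.09 to 0.21. With the GC and length trend removed the mitochondrial median turned from 0.14 to -0.21 and the contractile median was 0.01, against -0.02 in the fit reported. Single genes near 0 changed sign. Fn1 was at 0.0398 without the replicate block and 0.0017 under the stricter filter, Hyal2 at 0.0113 and Postn at -0.22 with the GC and length trend removed. When single libraries or preparations were left out, Fn1 ranged from -0.14 to 0.15, Hyal2 from -0.13 to 0.0265, Acta2 from -0.13 to 0.25, Tagln from -0.0469 to 0.191, Postn from -0.20 to 0.85, Ptx3 from -0.35 to 0.0428, Ifit1 from -0.40 to 0.12, Ackr4 from -1.80 to 0.13, Cxcl5 from -0.65 to 1.86 and Abi3bp from -0.45 to 0.91. Intervals were widest for genes of low CPM, and depth itself was not varied.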

Other observations

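Of the genes of the SMC family, which form the rings that hold and fold chromosomes, all 6 tested had a difference of responses above 0 in all 4 preparations. The family was picked after its values were seen, so no test is given. Smc1a stood at 0.20, Smc2 at 0.99, Smc3 at 0.76, Smc4 at 0.93, Smc5 at 0.66 and Smc6 at 0.96. The median response was 0.44 in Cre cells and -0.35 in GFP cells, and the median GC content was 40.3%. With the GC and length trend of each library removed the same genes stood at 0.20, 0.73, 0.64, 0.73, 0.35 and 0.73.

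Zinc finger genes named Zfp with a number, also picked after their values were seen, numbered 318 among the genes tested. Of these 220 had a difference above 0 and 72 (22.6%) were above 0 in all 4 preparations, against 8.05% of all genes. Their median difference was 0.09, with 0.17, 0.05, 0.21 and 0.01 by preparation. The median response was -0.01 in Cre cells and -0.20 in GFP cells, and the median GC content was 44.6%.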
